A study of Rattus norvegicus with 22 samples.

Results

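The subject is a set of 10 astrocyte genes, Gfap, Vim, Aqp4, Gja1, Gjb6, Aldh1l1, S100b, Glul, Hopx and Agt, in the ventral cervical spinal cord of the rat. They were chosen by gene symbol as genes that mark or serve astrocytes, and all 10 were found among the 32883 genes of the count table. The study measured RNA by sequencing in adult male and female rats with and without gonads, to ask how removal of the gonads changes gene expression in this tissue. Each library came from the ventral part of segments C3-C6 of 1 rat.

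Astrocytes are the star-shaped glia of the brain and spinal cord. Their filament proteins give them shape, their endfeet on blood vessels and on the cord surface carry water channels, gap junctions join them into a network, and their enzymes clear glutamate and ammonia. They can alter their filaments with hormonal change and after injury, where the state is called reactive. In the ventral horn they surround motor neurons and their synapses.

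The 4 groups were 5 intact males (rats 1, 2, 3, 5 and 6), 5 gonadectomized males (GDX, testes removed; rats 1, 2, 4, 5 and 6), 6 intact females and 6 ovariectomized females (OVX, ovaries removed). All were Sprague-Dawley rats aged 3 to 4 months, and tissue of the operated rats was taken 2 weeks after surgery. Intact rats were matched for age and no sham operation is described for them, so anaesthesia, surgery, analgesia and the loss of hormones cannot be told apart. Whole tissue was sequenced, so more astrocytes and more RNA per astrocyte cannot be told apart either. Library totals ran from 12371756 to 17571887 counts. Libraries also fell into a short and a long class by average fragment size: all 11 operated rats were in the short class, as were rats 2 and 5 of the intact males and rats 1 and 4 of the intact females. The 7 long libraries were all from intact rats. Levels are given as CPM, a gene's counts relative to the scaled total of its library, and a gene was called different at a Benjamini-Hochberg adjusted p under 0.1 over all genes tested.

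Every member was detected in every rat and kept in every comparison, so the labelled tissue held its astrocyte genes throughout. In GDX against intact males 5 of the 10 members were called, Gfap, Vim, Aqp4, S100b and Hopx, all higher, where 13.4% of all 14931 genes tested were called in either direction and 6.78% were called higher. The same 5 members had every GDX male above every intact male, a pattern shown by 3.54% of all genes. The median log2 fold change was 0.19 over the 10 members and 0.0021 over all genes. With library class as a term edgeR called 2 members in GDX males, Gfap and S100b, as it did among short libraries alone. Vim, Aqp4 and Hopx were not called in either fit. Over all genes the number called also fell, from 1995 to 796 with the class term and to 440 among short libraries. With the mean level of meningeal and fibroblast markers as a term 0 members were called and 1 had an unadjusted p under 0.05. In that fit 1 gene was called in the whole table. In OVX against intact females 0 of the 10 members were called by the edgeR quasi-likelihood test, where 0.0335% of all genes were called, 4 members had an unadjusted p under 0.05, as had 1516 of all 14910 genes, and DESeq2 called 1 member.

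**Figure D1:**
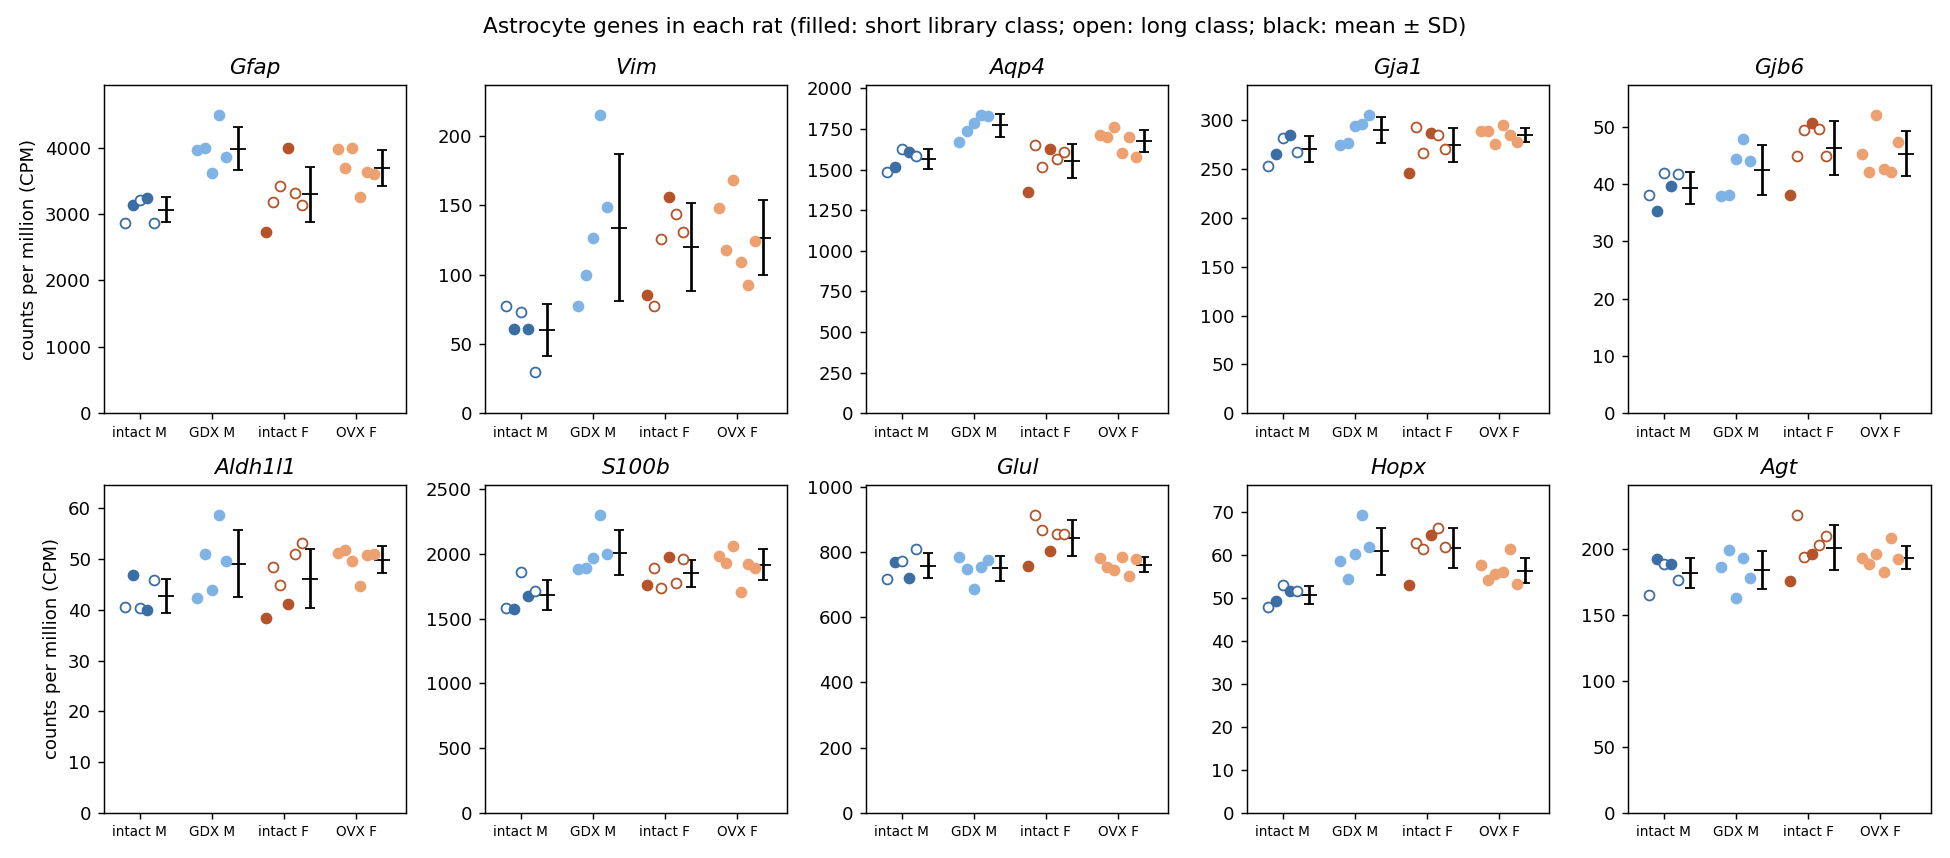
Levels of the 10 astrocyte genes in CPM, 1 point per rat in each of the 4 groups, with filled points for the short library class, open points for the long class, and black bars for the mean ± SD. The 5 GDX males lie above the 5 intact males for Gfap, Vim, Aqp4, S100b and Hopx, and the female groups overlap for every gene.

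Gfap encodes glial fibrillary acidic protein, the main intermediate filament of astrocytes. Its level in intact males 1, 2, 3, 5 and 6 was 2859.5, 3135, 3206, 3246 and 2861 CPM, and in GDX males 1, 2, 4, 5 and 6 it was 3969, 3989, 3620.5, 4495 and 3862 CPM. GDX male 5 was the highest rat of all 22, and the lowest GDX male was above the highest intact male. The mean was 3062 ± 188 CPM in intact males and 3987 ± 319.7 CPM in GDX males (SD, n = 5 each), a log2 fold change of 0.38 (SE 0.059, edgeR adjusted p = 0.00472), the 31st smallest p of all genes. Intact females had 2727, 3252 and 3990.2 CPM as lowest, median and highest, and OVX females 3263, 3669 and 4001 CPM. The female ranges overlapped: intact females 3, 4 and 5 were above the lowest OVX rat, and intact female 4 stood at the level of the highest OVX rats. The female log2 fold change was 0.17 (SE 0.070, edgeR adjusted p = 0.424). By mean level the groups ran from intact males to intact females to OVX females to GDX males. Between the intact groups Gfap was not called, with a log2 difference of -0.10 for males against females (SE 0.072, edgeR adjusted p = 0.548).

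Vim encodes vimentin, an intermediate filament of immature and reactive astrocytes that endothelial cells and fibroblasts also make. It was measured at 77.0, 61.0, 72.8, 60.4 and 29.5 CPM in intact males 1, 2, 3, 5 and 6, and at 77.6, 99.9, 127, 215 and 149 CPM in GDX males 1, 2, 4, 5 and 6. The groups did not overlap, but GDX male 1 was only just above intact male 1, and GDX male 5 was well above the rest. The log2 fold change of 1.15 (SE 0.25, edgeR adjusted p = 0.0139) came from means of 60.1 ± 18.6 and 134 ± 53.0 CPM (SD, n = 5 each). Intact females had 77.5, 128 and 156 CPM as lowest, median and highest, and OVX females 92.5, 121 and 168 CPM. These ranges overlapped nearly in full, with a log2 fold change of 0.088 (SE 0.16, edgeR adjusted p = 0.917). Intact males were the low group: every intact male was below every intact female, as in 1.48% of all genes. The log2 difference was -0.99 (SE 0.21, edgeR adjusted p = 0.0235). The gap was narrow, between intact male 1 at 77.0 CPM and intact female 2 at 77.5 CPM, and intact male 6 was well below the rest.

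Markers of the meninges and fibroblasts moved with Vim. All 8 of the 8 tested genes of that list were called higher in GDX males, with a median log2 fold change of 1.65, among them Slc6a13 (1.57), Col3a1 (1.73), Igf2 (1.60) and Col1a1 (1.81), and 6 of the 8 were called lower in intact males than in intact females. The list's summed level was 189, 127, 132, 84.7 and 63.3 CPM in intact males 1, 2, 3, 5 and 6 and 169, 284, 413, 543 and 442 CPM in GDX males 1, 2, 4, 5 and 6. Intact females ran from 134 to 441 CPM with a median of 311, and OVX females from 266 to 464 with a median of 348. Its most abundant gene was the collagen gene Col1a1 in every rat, and at most 1 of its genes was at 0 in any rat. The rat with the highest sum, GDX male 5, was also the rat with the most Vim and the most Gfap, and the rat with the lowest sum, intact male 6, had the least Vim. With the mean level of this list as a term, the GDX difference of Vim was -0.14 and that of Gfap 0.32, and 0 of the 10 members were called by edgeR, 1 of them at an unadjusted p under 0.05, with 1 gene called in the whole table. That level differed between the male groups, so surgery and the level of these markers cannot be told apart in that fit. Whether the level follows the amount of surface tissue or the RNA per cell was not tested.

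**Figure D2:**
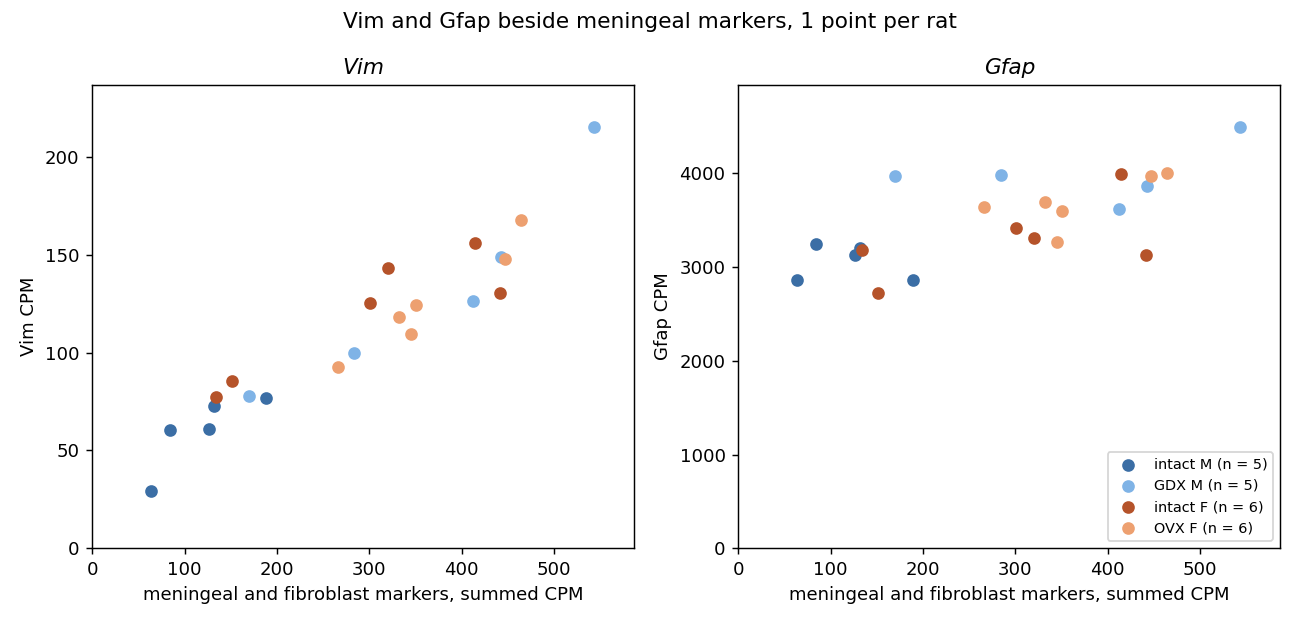
Vim (left) and Gfap (right) in CPM against the summed level of meningeal and fibroblast markers in CPM, 1 point per rat, coloured by group. Vim runs from intact male 6 at 29.5 CPM to GDX male 5 at 215 CPM, the rats with the lowest and the highest marker sum, and GDX male 5 also has the most Gfap.

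Aqp4 encodes aquaporin-4, the water channel of astrocyte endfeet. Intact males 1, 2, 3, 5 and 6 had 1487, 1513, 1625, 1611 and 1584 CPM, and GDX males 1, 2, 4, 5 and 6 had 1668, 1739, 1784, 1837 and 1829.5 CPM. All GDX males were above all intact males, by a small step. The log2 fold change was 0.18 (SE 0.044, edgeR adjusted p = 0.0209). OVX females had 1579.6, 1700.4 and 1761 CPM as lowest, median and highest, against 1359, 1585 and 1650.3 CPM in intact females. The female groups overlapped, with intact female 1 lowest, and the log2 fold change of 0.12 (SE 0.045) had an edgeR adjusted p of 0.390.

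Gja1 and Gjb6 encode connexin 43 and connexin 30, which form the gap junctions between astrocytes. Gja1 ranged from 253 to 285 CPM in intact and 275 to 306 CPM in GDX males, and from 246 to 293 CPM in intact and 276 to 295 CPM in OVX females. Neither male nor female groups were separate for Gja1, and its log2 fold changes were 0.10 (SE 0.047, edgeR adjusted p = 0.210) in males and 0.059 (SE 0.041, edgeR adjusted p = 0.674) in females. Gjb6 ranged from 35.3 to 42.0 CPM in intact and 37.9 to 47.8 in GDX males, and from 38.1 to 50.8 in intact and 42.1 to 52.1 in OVX females. Its log2 fold change was 0.11 (SE 0.073, edgeR adjusted p = 0.400) in males and -0.026 (SE 0.070, edgeR adjusted p = 0.946) in females.

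S100b encodes a calcium-binding protein of astrocytes that oligodendrocytes also express. Intact males 1, 2, 3, 5 and 6 had 1586, 1579, 1864, 1673 and 1716 CPM, and GDX males 1, 2, 4, 5 and 6 had 1882, 1888, 1972, 2305 and 2003 CPM. The groups were separate by a narrow gap, between intact male 3 and GDX male 1, and GDX male 5 was highest. The log2 fold change was 0.26 (SE 0.062, edgeR adjusted p = 0.0208). Intact females had 1734, 1832 and 1979 CPM as lowest, median and highest and OVX females 1704, 1930.0 and 2058 CPM, overlapping ranges with a log2 fold change of 0.056 (SE 0.047, edgeR adjusted p = 0.749). Of 10 markers of myelinating oligodendrocytes 2 were called higher in GDX males, Ermn at a log2 fold change of 0.24 and Mbp at 0.17, and 0 were called lower. The summed level of that list averaged 24892 ± 1371 CPM in intact males and 27085 ± 1209 CPM in GDX males (SD, n = 5 each), and its part in the S100b result was not tested.

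Glul, a metabolic gene, encodes glutamine synthetase, which turns glutamate and ammonia into glutamine. Its level ranged from 718 to 810.3 CPM in intact males and 687 to 785 CPM in GDX males, a log2 fold change of -0.014 (SE 0.049, edgeR adjusted p = 0.895). Intact females had 756, 856 and 915 CPM as lowest, median and highest, and OVX females 726, 767 and 784 CPM. Among intact females only rat 1 was within the OVX range, yet the log2 fold change of -0.14 (SE 0.042) did not pass, with an edgeR adjusted p of 0.257. It was called by DESeq2 (adjusted p = 0.0715) and by edgeR without intact female 1 (adjusted p = 0.0733), a fit in which the number of genes called rose from 5 to 113. All OVX libraries were short, and the 2 short intact females averaged 780.5 CPM against 874 CPM in the 4 long ones. With library class as a term the female Glul fold change was -0.032 (edgeR adjusted p = 0.918), and among short libraries -0.036.

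Aldh1l1 encodes a folate-dependent dehydrogenase used as a general astrocyte marker. Its ranges were 39.9 to 46.8 CPM in intact and 42.2 to 58.8 in GDX males, and 38.4 to 53.2 in intact and 44.6 to 51.7 in OVX females. The log2 fold change was 0.20 (SE 0.083, edgeR adjusted p = 0.152) in males, where it was called without GDX male 1 (adjusted p = 0.0614), and 0.12 (SE 0.070, edgeR adjusted p = 0.613) in females. Both short intact females, at 38.4 and 41.1 CPM, were below every OVX rat. The female fold change was 0.33 with library class as a term (edgeR adjusted p = 0.239) and 0.33 among short libraries (edgeR adjusted p = 0.307).

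Agt encodes angiotensinogen, the precursor of angiotensin peptides, which astrocytes secrete. Its ranges overlapped in every comparison: 165 to 192 CPM in intact and 163 to 199.7 in GDX males, and 175 to 226 in intact and 182 to 208 in OVX females. The log2 fold change was 0.016 (SE 0.059, edgeR adjusted p = 0.903) in males and -0.049 (SE 0.052, edgeR adjusted p = 0.815) in females.

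Hopx encodes a small homeodomain protein that does not bind DNA itself and is used as a marker of astrocytes and neural stem cells. Intact males 1, 2, 3, 5 and 6 had 47.9, 49.3, 53.1, 51.5 and 51.6 CPM, and GDX males 1, 2, 4, 5 and 6 had 58.6, 54.3, 60.2, 69.4 and 61.8 CPM. The intact males were close together, and every GDX male was above them. The log2 fold change was 0.26 (SE 0.061, edgeR adjusted p = 0.0170). In females the order was the opposite, with 53.0, 62.3 and 66.2 CPM as lowest, median and highest in intact rats and 53.2, 55.8 and 61.3 CPM in OVX rats. Intact female 1 lay below every OVX rat, while the 5 other intact females lay above all of them, and the log2 fold change of -0.12 (SE 0.052) had an edgeR adjusted p of 0.426. Between the intact groups Hopx was lower in males, with a log2 difference of -0.28 (SE 0.053, edgeR adjusted p = 0.0144), although intact female 1 overlapped the males.

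**Figure D3:**
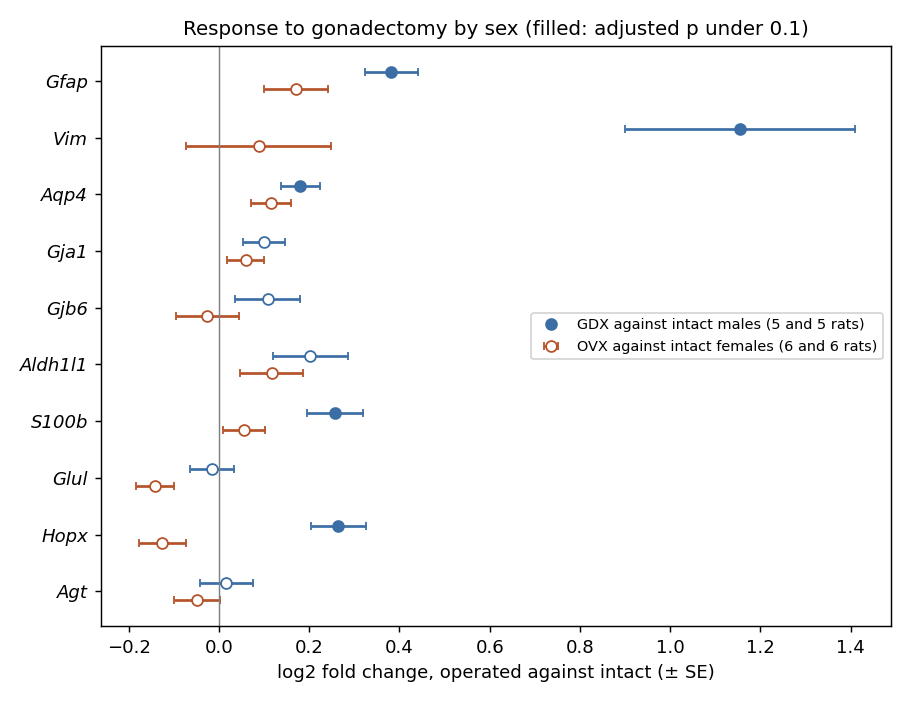
Log2 fold change of each astrocyte gene after gonadectomy, with bars of 1 SE, in males (blue, 5 GDX against 5 intact) and females (orange, 6 OVX against 6 intact), with filled points for an adjusted p under 0.1. Filled points appear in males for 5 genes, Vim stands farthest from 0 at 1.15, and Hopx is at 0.26 in males and -0.12 in females.

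Whether the responses of males and females differed was tested over all 22 rats. The difference, male minus female, was positive for 10 of the 10 members, with a median of 0.13 on the log2 scale against 0.0017 for all genes, of which 50.3% were positive, and 1 member, Hopx, was called, in the higher direction, where 0.116% of all genes were called and 0.09% were called higher. The Hopx difference was 0.39 (SE 0.081, edgeR adjusted p = 0.0973), just inside the threshold. It was called in 7 of 22 fits that left out 1 rat, those without intact male 3, GDX male 1, GDX male 2, intact female 1, intact female 2, OVX female 1 or OVX female 5, and not in the other 15, with adjusted p from 0.0172 to 0.214 and a difference from 0.34 to 0.43 over all 22. With library class as a term the adjusted p was 0.113, and among short libraries alone 0.428. The Vim difference of 1.07 (SE 0.33) had an edgeR adjusted p of 0.180, and it was called without GDX male 1 (adjusted p = 0.0787). For Gfap the difference was 0.22 (SE 0.10, edgeR adjusted p = 0.402) and for S100b 0.20 (SE 0.079, edgeR adjusted p = 0.291), so the larger male values of these genes were not shown to differ from the female ones. In the same test 1810 of all 15562 genes had an unadjusted p under 0.05, and the lists of other cells went different ways. Meningeal, Schwann cell, erythroid (0.80) and motor neuron markers (0.18) had medians above that of the members. Endothelial (0.0085), pericyte (0.087), myelinating oligodendrocyte (0.037), precursor (0.050), neuronal (0.0095), microglial (0.086) and ependymal markers (-0.099) had lower medians. For the meningeal list 8 of 8 were positive (median 1.31), with 0 called by edgeR, 7 at an unadjusted p under 0.05 and 2 by DESeq2. For Schwann cells 4 of 4 were positive (median 0.96), with 0 called by edgeR, 4 at an unadjusted p under 0.05 and 0 by DESeq2. With the mean level of the meningeal list as a term, edgeR called 0 members for the difference, and 1 member had an unadjusted p under 0.05. Without that term 1 member was called and 4 had an unadjusted p under 0.05. The meningeal level itself differed between the male groups, so surgery and the level of these markers cannot be told apart in that fit. The part of the remaining lists in the members' differences was not tested.

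Intact males and intact females are the controls of those responses, and their own difference was tested. Of the 10 members 2 were called, Vim and Hopx, both lower in males, where 4.01% of all genes were called and 2.56% were called lower. Gjb6 (log2 difference -0.23, SE 0.070, edgeR adjusted p = 0.114) and Glul (-0.15, SE 0.048, edgeR adjusted p = 0.131) came next. Beside the members, 6 of 8 meningeal markers (median -1.26) and 3 of 4 Schwann cell markers (median -1.13) were called lower in intact males. In each of these lists 0 were called higher. Without intact female 1, the rat with the lowest Gfap, Aqp4, Gja1, Gjb6, Aldh1l1, Glul, Hopx and Agt of its group, 5 members were called, in a fit that called 777 genes in all against 599 with every rat: Gjb6 had an adjusted p of 0.0150, Glul 0.0412 and Agt 0.0962, beside Vim and Hopx. S100b was called without intact male 3 (adjusted p = 0.0682). Among the short libraries, 2 intact males and 2 intact females, 0 members were called by edgeR and 2 had an unadjusted p under 0.05, with log2 differences of -0.98 for Vim and -0.22 for Hopx.

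Library class was compared within the 11 intact rats, with sex as a term. Of the 10 members 0 were called by edgeR and 0 by DESeq2, where 0.00649% of all genes were called, and 1 member, Glul, had an unadjusted p under 0.05, at a log2 difference of 0.10 for long against short (SE 0.04, edgeR adjusted p = 0.602). Within the GDX comparison, library class as a term gave log2 fold changes of 0.32 for Gfap, 0.31 for S100b, 0.18 for Aqp4, 0.27 for Hopx and 1.14 for Vim, but fewer passed. Gfap (adjusted p = 0.0591) and S100b (adjusted p = 0.0761) were called by edgeR and Vim (0.110), Hopx (0.103) and Aqp4 (0.123) were not. With only the 2 short intact males as controls, Gfap (adjusted p = 0.0859) and S100b (adjusted p = 0.0959) were called and Vim (0.101), Hopx (0.145) and Aqp4 (0.148) were not. The number of genes called fell from 1995 to 796 with the term and to 440 in short libraries, and to 1202 without GDX male 5. In the OVX comparison the class term also moved Hopx from -0.12 to -0.057, Gja1 from 0.059 to 0.10 and Aqp4 from 0.12 to 0.17, and none of these was called by edgeR with or without it.

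Members that moved together in males make their promoters of interest, so the RefSeq windows of Gfap, Vim, S100b and Hopx follow, the called members with 1 window each, 250 bases before to 50 after the start, printed 5′ to 3′ with motif matches in capitals. Windows were found for 9 of the 10 members, 12 in all, and not for Agt. The motifs searched on both strands were the TATA box TATAAA, the box CCAAT, the GC box GGGCGG, the AP-1 motif TGANTCA, the STAT motif TTCNNNGAA, the core TGTTCT of androgen and glucocorticoid receptor sites and the core GGTCA of oestrogen receptor sites, and no matches overlapped in these 4 windows.
Gfap, GRCr8 chr10:88361612-88361911, minus strand: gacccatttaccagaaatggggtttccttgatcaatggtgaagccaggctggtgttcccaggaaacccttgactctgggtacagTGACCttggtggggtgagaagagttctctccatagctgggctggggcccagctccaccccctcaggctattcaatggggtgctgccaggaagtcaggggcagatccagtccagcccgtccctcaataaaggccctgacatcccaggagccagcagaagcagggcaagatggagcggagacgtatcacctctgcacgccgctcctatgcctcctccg
Vim, GRCr8 chr17:81577011-81577310, plus strand: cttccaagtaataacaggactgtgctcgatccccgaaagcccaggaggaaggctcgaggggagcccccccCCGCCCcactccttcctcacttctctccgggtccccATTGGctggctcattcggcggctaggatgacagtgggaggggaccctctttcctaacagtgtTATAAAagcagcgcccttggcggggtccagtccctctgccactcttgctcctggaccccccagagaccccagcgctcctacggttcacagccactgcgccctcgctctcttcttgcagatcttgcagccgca
S100b, GRCr8 chr20:12381032-12381331, minus strand: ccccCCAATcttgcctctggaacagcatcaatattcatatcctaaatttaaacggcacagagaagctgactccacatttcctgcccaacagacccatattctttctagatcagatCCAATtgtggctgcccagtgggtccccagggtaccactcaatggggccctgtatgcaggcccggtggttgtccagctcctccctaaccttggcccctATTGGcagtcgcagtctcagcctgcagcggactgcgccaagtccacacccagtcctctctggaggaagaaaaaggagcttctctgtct
Hopx, GRCr8 chr14:31429163-31429462, plus strand: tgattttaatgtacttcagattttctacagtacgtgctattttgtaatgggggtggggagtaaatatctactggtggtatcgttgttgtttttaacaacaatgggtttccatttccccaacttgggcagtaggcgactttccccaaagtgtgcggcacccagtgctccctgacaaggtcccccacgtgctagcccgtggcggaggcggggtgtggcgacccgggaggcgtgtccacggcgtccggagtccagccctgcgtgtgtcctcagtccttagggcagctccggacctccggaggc
In these windows Gfap held 1 GGTCA, Vim held 1 TATAAA, 1 CCAAT and 1 GGGCGG, S100b held 3 CCAAT and Hopx held none of the 7 motifs. Aqp4, the other called member, has 2 windows, not printed, of which 1 held 1 CCAAT and 1 GGGCGG and the other none of the motifs. Over the 12 member windows TGTTCT was found in 1, GGTCA in 5, CCAAT in 7, GGGCGG in 7, TGANTCA in 1, TATAAA in 1 and TTCNNNGAA in 0. Of 33469 rat promoter windows of the same length, 20.7% held TGTTCT, 40.5% GGTCA, 37.5% CCAAT, 33.1% GGGCGG, 7.33% TGANTCA, 14.2% TATAAA and 8.87% TTCNNNGAA. A full receptor site, with a pair of facing cores 3 bases apart, was in 0 member windows for either receptor core, and in 0.0149% of all windows for TGTTCT and 0.0269% for GGTCA. These are matches of letters in a short window and say nothing of binding.

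Across the 22 rats, with group means removed, the members tended to vary together. Of 45 pairs 43 had a positive Pearson r of log2 CPM, with a median of 0.43, where the members with the 15552 other genes had a median r of 0.0030, 50.4% of them positive and 5.63% above the members' median. Of the member pairs 11 passed a Benjamini-Hochberg adjusted permutation p under 0.05, all positive. By Spearman rho 5 pairs passed. Aqp4 with S100b had r = 0.70 and Spearman rho = 0.85, with permutation p of 0.0002 and 1e-05, the latter the smallest the permutations can give, adjusted to 0.009 and 0.00045. Without the 2 rats farthest in Aqp4 r was 0.76, and within library class it was 0.76 in 15 short and 0.90 in 7 long libraries. Aqp4 with Gja1 had r = 0.76 and rho = 0.65 (permutation p = 0.00055 and 0.00364, adjusted 0.0124 and 0.0401), 0.59 without 2 rats, and 0.73 and 0.83 within the short and long class. Gfap with Vim, the filament pair, had r = 0.55 and rho = 0.56 (permutation p = 0.00956 and 0.0126, adjusted 0.0478 and 0.0770), 0.49 without 2 rats, and 0.65 and 0.42 within the short and long class. Aqp4, Gjb6, S100b and Hopx each passed with 4 partners, and Aldh1l1, Glul and Agt with 0. For 3 of the 4 pairs of Gjb6 the value in short libraries was not seen in the 7 long ones: r was 0.76 and -0.068 with Aqp4, 0.78 and -0.075 with S100b and 0.87 and -0.0067 with Vim. Gfap with S100b was at 0.77 and 0.15. After centring within group and library class together, 1 of the 45 pairs passed, Aqp4 with S100b (r = 0.79, permutation p = 6e-05, adjusted 0.0027). The median r under this centring was 0.42, and r was 0.75 for Aqp4 with Gja1 (adjusted p = 0.0856), 0.70 for Gja1 with Hopx (0.0856) and 0.55 for Gfap with Vim (0.151). In that test rats are exchanged only within a group and class, which holds as few as 2 rats, and for Aqp4 with Gja1 the permutation p went from 0.00055 to 0.00616 at nearly the same r.

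**Figure D4:**
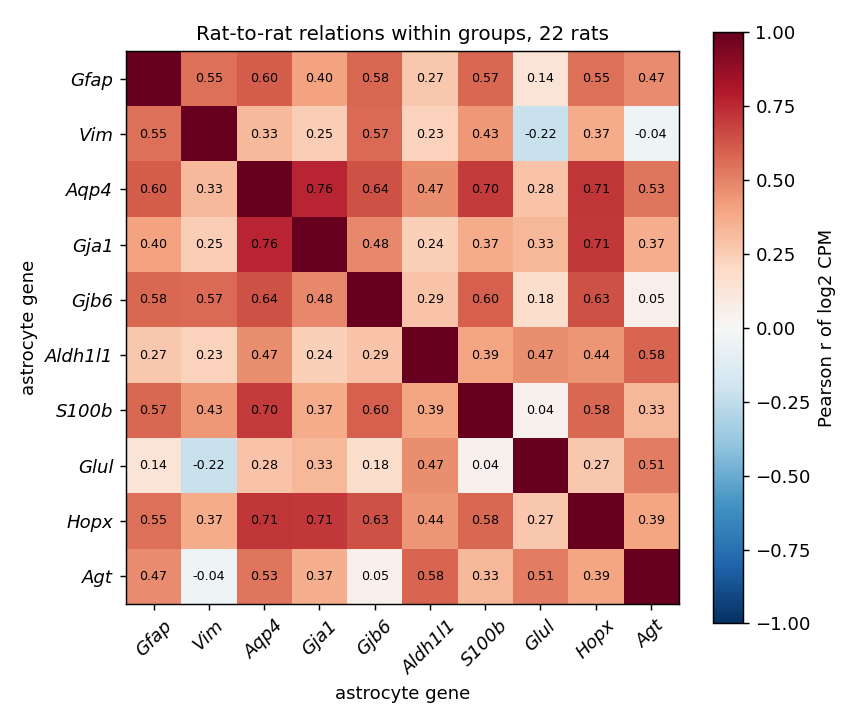
Pearson r of log2 CPM between each pair of astrocyte genes over 22 rats with group means removed, on a colour scale from -1 to 1. Aqp4, Gja1 and Hopx form the block of highest values, at 0.71 to 0.76, and Vim with Glul has the lowest value, -0.22.

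The gene most like a member across rats was taken from 15561 other genes, as a description with no test. It was Apoe, a lipid carrier made by astrocytes, for Gfap (r = 0.88), the integrin gene Itgb4 for Vim (0.97), the axonal adhesion gene Cntn1 for Aqp4 (0.88) and Suclg2 of the citric acid cycle for Gja1 (0.78). The myelin gene Mbp was nearest to S100b (0.88), Tnfrsf1b to Aldh1l1 (0.80), Ret to Glul (0.86), Rabac1 to Hopx (0.80) and Gapvd1 to Agt (0.81). No member had another member as its nearest gene. The nearest other member ranked 5th for Gja1, 12th for Aqp4 and Hopx, 43rd for S100b, 72nd for Aldh1l1, 89th for Agt, 136th for Gfap, 149th for Gjb6, 491st for Vim and 680th for Glul.

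Lists of related genes were read beside the members in males, where 13.4% of all genes were called. Of 25 tested genes of the reactive astrocyte list, 8 were called higher in GDX males and 0 lower, with a median log2 fold change of 0.45. In the same males 8 of 8 meningeal, 5 of 7 endothelial and 4 of 7 pericyte and smooth muscle markers were called higher. The part of those cells in the values of the reactive list was not tested. Cd44, a hyaluronan receptor, was at 28.6 ± 1.63 CPM in intact males and 39.1 ± 4.48 CPM in GDX males (SD, n = 5 each; log2 fold change 0.45, SE 0.074, edgeR adjusted p = 0.00554). The copper carrier Cp (log2 fold change 0.69), the complement inhibitor Serping1 (0.97) and Emp1 (0.54) were also called. In females 0 of 25 were called by edgeR, 4 had an unadjusted p under 0.05 and DESeq2 called 3. For Cd44 the test of male against female response was also called (0.51, SE 0.10, edgeR adjusted p = 0.0973), just inside the threshold. It was called in 7 of 22 fits that left out 1 rat, those without intact male 3, GDX male 1, GDX male 2, intact female 1, intact female 2, OVX female 1 or OVX female 3, with adjusted p from 0.0185 to 0.214 over all 22. It was not called with library class as a term (adjusted p = 0.113) or among short libraries (0.501). Of 24 genes of the list 3 were called lower in intact males than in intact females, where 4.01% of all genes were called, Cd44 (log2 difference -0.49) and Cp (-0.64) among them.

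Among 25 other astrocyte identity and metabolism genes, 5 were called higher and 2 lower in GDX males. The transcription regulator Id3 (log2 fold change 0.45), the fatty acid carrier Fabp7 (0.29) and Gldc of glycine cleavage (0.58) rose, and the amino acid exchanger Slc7a10 fell (-0.31). Of the other filament and linker genes 1 of 4 was called, Nes, the filament nestin, at 0.719 ± 0.296 CPM in intact males and 1.75 ± 0.619 CPM in GDX males (SD, n = 5 each; log2 fold change 1.25, edgeR adjusted p = 0.0295). By count, the lists that follow were near or below the 13.4% of all genes, apart from the connexins with 2 of 7. Of 7 other connexins Gjb2 rose (0.55) and the neuronal Gjd2 fell (-0.49). Of 10 endfoot ion and water handling genes 1 was called, Dag1, dystroglycan (0.13). Of 7 genes of glutamate uptake and the glutamine cycle 1 was called, Got1 (-0.29), and of 9 renin-angiotensin genes 1, the peptidase Anpep (0.69). Of 10 steroid receptor and glucocorticoid-responsive genes 0 were called by edgeR and by DESeq2 in GDX males and 1 had an unadjusted p under 0.05. In intact males 4 were called lower than in intact females, the clock gene Per1 (-0.81) and the kinase gene Sgk1 (-1.39) among them. The list's sum varied most in intact females, at 334 ± 81.8 CPM (234 to 441), against 241 ± 8.45 CPM in intact males (SD). In OVX against intact females 8 of the 10 were lower, with 0 called by edgeR and 5 at an unadjusted p under 0.05.

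Markers of other cells also moved in GDX males, beside the members. Of 7 endothelial markers 5 were called higher, among them Cdh5 (log2 fold change 1.23), Tek (0.49), Kdr (0.64) and Cldn5 (0.48). Of 7 pericyte and smooth muscle markers 4 were called higher, Rgs5 (0.65), Tagln (0.58), Myh11 (0.38) and Pdgfrb (0.27). Of 4 Schwann cell markers 2 were called higher by edgeR and 0 by DESeq2. Of 9 microglial markers 1 was called, C1qc (0.46), of 5 oligodendrocyte precursor markers 1, Pdgfra (0.23), and of 5 ependymal markers 0, with 0 by DESeq2 and 0 at an unadjusted p under 0.05. All 4 tested erythroid entries were called higher, a pair of Hba-a2 (1.71 and 1.72), Hbb (1.45) and Slc4a1 (1.83), and those of Hba-a2 come from near-identical copies.

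Of 10 neuronal markers 4 were called lower, Rbfox3 (-0.33), Snap25 (-0.20), Map2 (-0.15) and Nefh (-0.29), and of 6 motor neuron markers 1 was called lower, Slc18a3 (-0.43). Leaving out intact male 1 or GDX male 5 left 2 neuronal markers called. The motor neuron count was 0 without GDX male 4 or GDX male 5, each with 2 at an unadjusted p under 0.05, and 2 without intact male 2 or GDX male 1. In long against short libraries of intact rats 9 of 10 neuronal markers were higher, with 0 called by edgeR, 6 at an unadjusted p under 0.05 and 1 by DESeq2. All 6 motor neuron markers were higher in long libraries (median log2 difference 0.40), with 0 called by edgeR, 6 at an unadjusted p under 0.05 and 2 by DESeq2. With library class as a term in males edgeR called 0 neuronal markers (3 at an unadjusted p under 0.05, median log2 fold change -0.054) and 0 motor neuron markers (1 at an unadjusted p under 0.05, median -0.0063). Among short libraries edgeR called 1 neuronal and 0 motor neuron markers, the latter with 2 at an unadjusted p under 0.05. With the meningeal level as a term edgeR called 0 of either list, 0 had an unadjusted p under 0.05, and the median was -0.054 for neuronal and 0.081 for motor neuron markers.

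The endothelial sum averaged 109 ± 14.5 CPM in intact and 161 ± 20.3 in GDX males, and 126 ± 29.5 in intact and 179 ± 26.4 in OVX females (SD), with Flt1 the most abundant and 0 genes at 0. The neuronal sum averaged 19392 ± 3099, 16407 ± 1118, 19626 ± 1891 and 16454 ± 1631 CPM in the same order (SD), with Nefm the most abundant and 0 genes at 0. In OVX females edgeR called 1 marker of these lists, endothelial Kdr (log2 fold change 0.77, edgeR adjusted p = 0.0966). DESeq2 called 2 endothelial, 3 neuronal and 1 each of the motor neuron, pericyte, erythroid and oligodendrocyte precursor markers. An unadjusted p under 0.05 was found for 6 of 7 endothelial and 5 of 5 erythroid markers, all higher in OVX rats, and for 6 of 10 neuronal and 5 of 6 motor neuron markers, all lower, beside 1516 of all 14910 genes. All 6 OVX libraries were short and 4 intact female libraries were long. The part of library class in the lower neuronal and motor neuron values of OVX rats was not tested. The part of the cells of these marker lists in the differences of the members and of the other astrocyte lists was not tested.

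**Figure D5:**
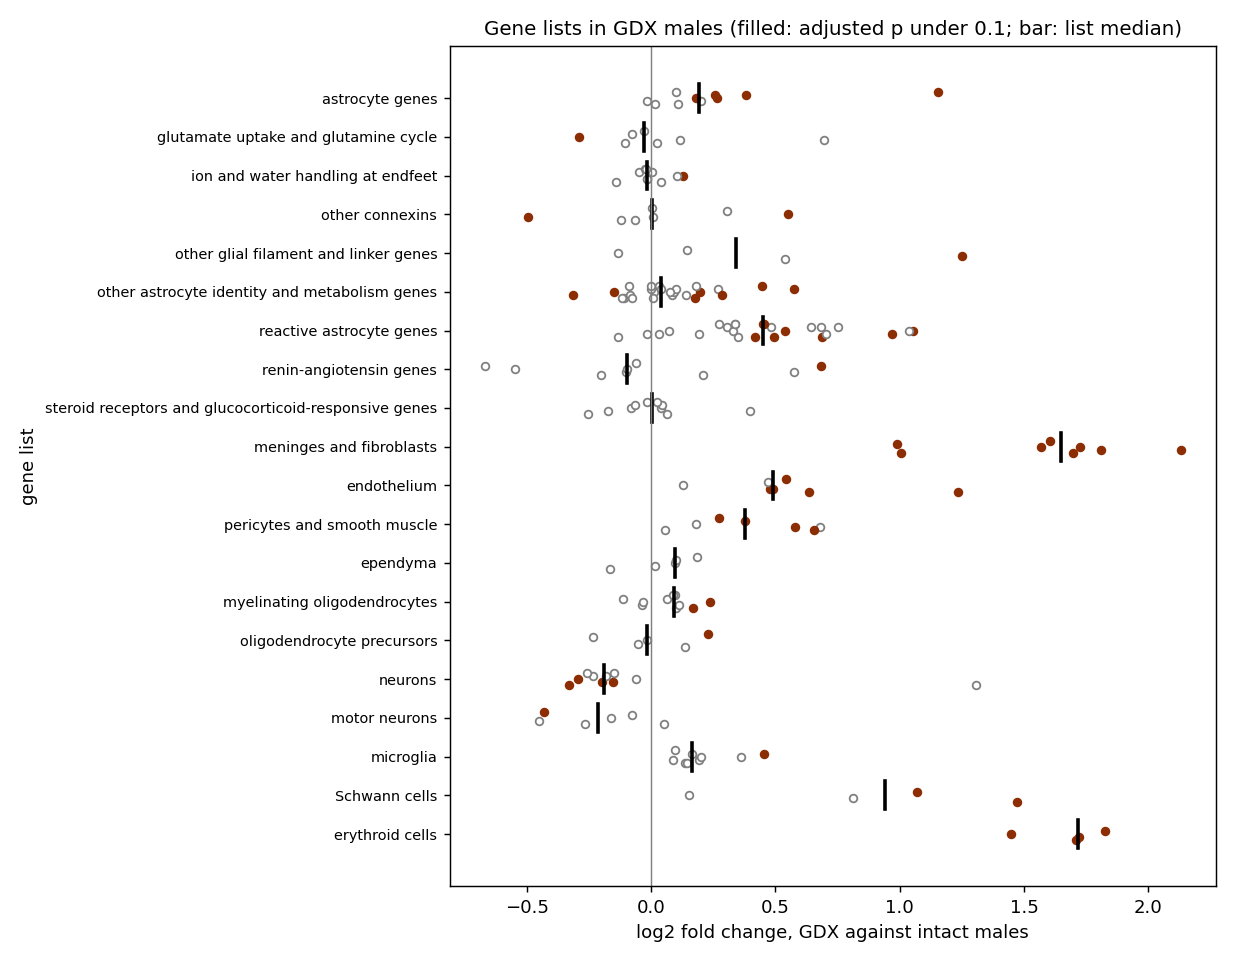
Log2 fold changes in GDX against intact males for every tested gene of the astrocyte genes and 19 other lists, 1 point per gene, filled at an adjusted p under 0.1, with a black bar at each list's median. The astrocyte genes have a median of 0.19, the reactive astrocyte list 0.45, and the meningeal list 1.65.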

How the data were processed

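The deposited table holds raw read counts per gene, which the authors made from 22 RNA libraries, 1 per rat. The paper describes trimming, alignment with Hisat2 to Rnor_6.0 and counting by featureCounts, whereas the submitters' processing notes name TopHat2 2.0.13, and the library kit is a stranded SMARTer kit in the paper but Illumina TruSeq in the labels, so neither aligner nor kit is settled here. Counts were tested per comparison in R 4.3.3 with edgeR 4.0.16: low counts were removed by filterByExpr, libraries were scaled by TMM, and glmQLFit and glmQLFTest were run with no covariate (sex for library class), two-sided, with Benjamini-Hochberg adjustment over all genes. DESeq2 1.42.0 was an alternative. Relations used log2 CPM with a prior count of 2, group means removed, and 100000 permutations within groups. The steps were tested on simulated data. Alternatives were other scaling, no filter, library class, RNA integrity or meningeal level as a term, short libraries only (library class is that of the paper's fragment sizes), a joint fit of all rats, a block for rat number, and leaving out each rat.

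Members and the 19 other gene lists were chosen with earlier results of these data known. All members were named. The called genes of the lists were named in part, at most 4 per list with the smallest adjusted p in GDX males and 2 in other comparisons. Listed genes such as Serpina3n and Nr3c1, which were not matched by symbol, were not analysed here. The gene most like Gjb6 is not reported here. Promoters came from RefSeq (GRCr8), a different build from that of the counts. Depth, 12371756 to 17571887 counts a library, gave at least 449 counts of every member in every rat. Errors are the spread between rats, counting error included.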

Additional observations from a re-analysis of the deposited data

Results flagged for a closer look

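Rats standing apart within their group were sought in 120 sets of 5 or 6 rats, by the gap to the nearest rat divided by the range of the group, and 7 stood out, where chance gives about 1 in 20. Among the 40 sets of the members there were 3. OVX female 4 was low in Aldh1l1, at 44.6 CPM with the next rat at 49.7 CPM (gap ratio 0.714). Intact female 1 was low in Hopx, at 53.0 CPM with the next at 61.5 CPM (0.640). GDX male 5 was high in S100b, at 2305 CPM with the next at 2003 CPM (0.715). Among the lists, intact female 1 was low in the summed endfoot genes (0.7102), OVX female 4 in the myelinating oligodendrocyte markers (0.645), GDX male 4 in the other connexins (0.759), and intact male 6 was high in the other filament and linker genes (0.753).

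The male and female responses differed by the test of the difference for Hopx, by 0.39 on the log2 scale, and for the reactive astrocyte gene Cd44, by 0.51 (edgeR adjusted p = 0.0973 for both). Each missed the threshold in 15 of 22 fits that left out 1 rat, while the difference ran from 0.34 to 0.43 for Hopx and from 0.44 to 0.56 for Cd44.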

How the results depend on the processing

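Of single-member values under the alternatives other than leaving out a rat, 361 kept direction and side of the threshold, 20 kept direction but were no longer called, 4 became called, and 25 changed sign. The main fits called 5 members in GDX males, 1 for the difference, 2 between intact groups and 0 in the other comparisons. Most of the 361 were therefore values not called in either fit, and the 20 losses fell on the few called ones. Vim in GDX males, called in the main fit, was among those that changed sign. Of the counts, 45 stayed within 1.5 times and 40 did not. Unless a value shows otherwise, the cause was not tested; short libraries alone leave 2 intact males and 2 intact females.

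In GDX against intact males 1995 genes were called, 796 with library class as a term, 440 in short libraries, 1262 with RNA integrity as a term and 1 with the meningeal level. The members called went from 5 to 2 with the class term and in short libraries, and to 0 with the meningeal level by edgeR, with 1 at an unadjusted p under 0.05. Glul turned positive with the class term (0.0094), in short libraries (0.011), with the rat number as a block (0.024) and with the meningeal level (0.042). Agt turned negative with the class term (-0.049), in short libraries (-0.048) and with RNA integrity (-0.0097). With the meningeal level Vim was -0.14 and Gjb6 -0.042. Leaving out 1 rat gave 1202 (without GDX male 5) to 2446 genes, 5 to 6 members, Agt from -0.018 to 0.057 and Glul from -0.034 to 0.015.

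In OVX against intact females 5 genes were called, 11 without a filter, 174 by DESeq2, 3 with the class term, 11 with RNA integrity, 9 with all rats in 1 fit and 8 with the meningeal level. DESeq2 called 1 member and edgeR 0, with 4 at an unadjusted p under 0.05. Gjb6 turned positive with the class term (0.036) and in short libraries (0.032), as did Agt (0.061 and 0.058), and Vim was -0.097 with the meningeal level. Leaving out 1 rat gave 0 (without OVX female 1 or 6) to 113 genes (without intact female 1), with 38 without OVX female 4, and 0 to 1 members, and Vim from -0.013 to 0.17.

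For the difference between responses 18 genes were called, 33 without a filter, 243 by DESeq2, 6 with the class term, 5 in short libraries, 5 with RNA integrity and 1 with the meningeal level. edgeR called 0 members in the last 4 of these. In short libraries Gja1 was -0.023, Aldh1l1 -0.14 and Agt -0.11, and with the meningeal level Gjb6 was -0.047 and Aldh1l1 -0.016. Leaving out 1 rat gave 1 (without GDX male 5) to 275 genes (without GDX male 1), with 111 without GDX male 2 and 108 without intact female 1, and 0 to 2 members.

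Between the intact groups 599 genes were called, 34 in short libraries and 21 with the meningeal level. The members called were 4 by DESeq2 and 0 by edgeR in short libraries and with the meningeal level. In short libraries Gja1 was 0.048, Aldh1l1 0.13 and Agt 0.037, and with the meningeal level Gfap was 0.081. Leaving out 1 rat gave 352 (without intact male 1) to 777 genes, with 385 without intact male 5, and 2 to 5 members (5 without intact female 1), Gja1 from -0.048 to 0.0053 and Aqp4 from -0.021 to 0.033. For library class 1 gene was called, 210 without a filter, 57 by DESeq2, 0 with RNA integrity and 2 with the meningeal level. Leaving out 1 rat gave 0 to 1 genes and 0 to 0 members there. The ranges of members that changed sign were -0.18 to 0.038 for Gfap, -0.19 to 0.18 for Vim, -0.015 to 0.087 for Aqp4, -0.044 to 0.045 for Gja1, -0.0057 to 0.073 for S100b, -0.0089 to 0.11 for Hopx and -0.034 to 0.069 for Agt. Of the 45 member pairs 11 passed, 8 with RLE factors and 1 when centred within library class too.

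Rat numbers recur between groups, but same-numbered rats did not deviate together: correlations were -0.077 to 0.0011 over 4 male pairs and -0.058 to 0.031 over 6 female pairs, and 0 rats were closest to their own number. With the number as a replicate block edgeR called 1274 genes in males, 0 in females, 0 for the difference and 255 between intact groups. It called 0 members for the difference and 1 between intact groups, with adjusted p of 0.105 for the Hopx difference and 0.108 for Vim, and Cd44 was not called for the difference (0.105). The block called 0 motor neuron markers in males, with 1 at an unadjusted p under 0.05. For library class Gfap was 0.027 and Vim 0.20. The lowest count of any member was 449, and the share of counting error in the spread between rats was not tested.

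The alternatives for Cd44 and for the neuronal and motor neuron markers were chosen after seeing the data.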
